A study of Mus musculus with 6 samples.

Results

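Adrenomedullin signalling was followed through 5 genes, the peptide gene Adm and the receptor components Calcrl, Ramp1, Ramp2 and Ramp3, out of 30142 genes measured in 6 mouse tumours. Each of the 5 lay on 1 probe set that the platform annotation gives exactly 1 gene symbol. Adm was selected on its measured values, since in each mouse the metastatic tumour had the lower value, so its difference between primary and metastatic tumours is given as a description with no test. The receptor components were taken for their role as partners of the peptide. The tumours came from ID8-VEGF cells, a variant, made to produce vascular endothelial growth factor, of a mouse ovarian surface epithelial line, which had been placed under the ovarian bursa. A primary and a metastatic tumour at a late stage were taken from each of 3 mice, named C1M3, C1M5 and C2M3, and each was profiled on 1 whole-transcriptome array. All 6 tumours carry the same cell line, and no group without tumour cells or with the parental line is part of the comparison. The labels used here name neither the strain, age or treatment of the mice nor the site of each metastatic tumour, and the source name of the C2M3 primary tumour reads C2M2, where the title and donor label were followed. Sets of 3 values are given in the order C1M3, C1M5, C2M3 throughout, as log2 intensities unless stated.

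Adrenomedullin is a secreted peptide that widens blood vessels, tightens the endothelial barrier and is required for blood and lymphatic vessels to form. It acts through the calcitonin receptor-like receptor, a G protein-coupled receptor encoded by Calcrl, which reaches the cell surface only together with a receptor activity-modifying protein. With the protein of Ramp2 or Ramp3 the receptor binds adrenomedullin, with that of Ramp1 it binds calcitonin gene-related peptide, and binding raises cyclic AMP in the cell. Transcription of Adm is known to rise when oxygen is low, through hypoxia-inducible factors (HIF), and in tumours the peptide can come from tumour cells and macrophages while its receptor is typical of endothelium.

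The 250 bases before the annotated start are shown for Adm, the gene that was lower in metastatic tumours, and for Calcrl and Ramp3, receptor genes that can be set against it. They come from RefSeq on build GRCm38.p6, where 4 of the 5 genes had an entry and Ramp2 was the one without. Capitals mark the core letters of the HIF recognition sequence, searched as ACGTG or GCGTG on both strands, so that CACGC is GCGTG on the opposite strand. Adm lies on the plus strand at chr7:110627407-110627656, Calcrl on the minus strand at chr2:84425267-84425516 and Ramp3 on the plus strand at chr11:6658283-6658532.
Adm: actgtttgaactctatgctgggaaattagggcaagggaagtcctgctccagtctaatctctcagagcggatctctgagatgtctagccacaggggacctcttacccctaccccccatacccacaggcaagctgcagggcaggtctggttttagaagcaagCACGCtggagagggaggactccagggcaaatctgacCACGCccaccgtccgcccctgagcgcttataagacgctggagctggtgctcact
Calcrl: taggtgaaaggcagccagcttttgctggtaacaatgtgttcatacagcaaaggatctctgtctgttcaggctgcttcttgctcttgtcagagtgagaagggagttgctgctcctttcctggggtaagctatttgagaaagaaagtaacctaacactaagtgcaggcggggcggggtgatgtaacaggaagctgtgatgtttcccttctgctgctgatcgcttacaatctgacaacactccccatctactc
Ramp3: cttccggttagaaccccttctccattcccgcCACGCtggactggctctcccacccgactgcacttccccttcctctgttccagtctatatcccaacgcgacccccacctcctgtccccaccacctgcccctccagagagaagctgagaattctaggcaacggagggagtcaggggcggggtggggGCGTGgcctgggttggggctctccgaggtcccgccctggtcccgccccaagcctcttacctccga
The Adm window held 2 such matches, at bases -90 to -86 and -54 to -50 counted from the start, and the Ramp3 window also held 2, while the windows of Calcrl and Ramp1 held none. Among 32851 windows of the same length, 38.6% held at least 1 match and 16.7% at least 2. The letters TATAA, the core of a TATA box, were found in the Adm window at bases -27 to -23, where the reverse complement TTATA overlaps them at bases -28 to -24. Of all windows 22.8% held TATAA on either strand, and none of the other 3 windows did. A match is a description of the letters only.

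The 5 genes were bright to different degrees. Control probe sets for background, 23 on each array, ranged from 2.36 to 6.34 on the log2 scale over the arrays, with array medians between 3.09 and 3.22, and the median of all genes was 5.04. Of the arrays, the primary tumour of C1M3 stood apart in macrophage markers, with a mean over 8 genes of 6.14 against 7.69 to 8.52 in the others. It also had the lowest array weight from limma, 0.26 against 0.73 to 2.28, where a low weight marks an array that varies more from its group. Whether cell content or array quality set this array apart was not tested. Its mean of 19 blood endothelial markers, 5.83, was close to the 5.88 of the metastatic tumour of C1M5. Most results that rest on it are given with and without it, but the counts of genes alike in pattern are not. Markers of the ovarian surface and mesothelium had a mean over 8 genes between 10.44 and 11.99 in the tumours. Among them Krt18 lay at 11.32 to 13.33 and Wt1 at 10.11 to 11.07. Not all were bright: Krt7 lay at 5.59 to 7.58, and in C1M3 within the range of the background probe sets. Fewer cells of a type and less RNA per cell cannot be told apart in these whole-tumour samples.

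Adm, the ligand gene (Entrez Gene 11535), was lower in metastatic tumours. Its primary values were 9.53, 8.93 and 10.24, and its metastatic values were 8.19, 6.93 and 6.09. The highest metastatic value lay below the lowest primary value, so that the groups did not overlap. The primary mean was 9.57 ± 0.65 (SD, n = 3) and the metastatic mean 7.07 ± 1.06, with a difference of -2.50 (SE 0.64), or 5.64-fold on the intensity scale. The metastatic value was lower by 2.54-fold in C1M3, 4.0-fold in C1M5 and 17.7-fold in C2M3. The last of these, and with it the fold of the means, rests on a value of 6.09 that lay within the range of the background probe sets. The mouse with the highest primary level, C2M3, also had the lowest metastatic level.

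**Figure D1:**
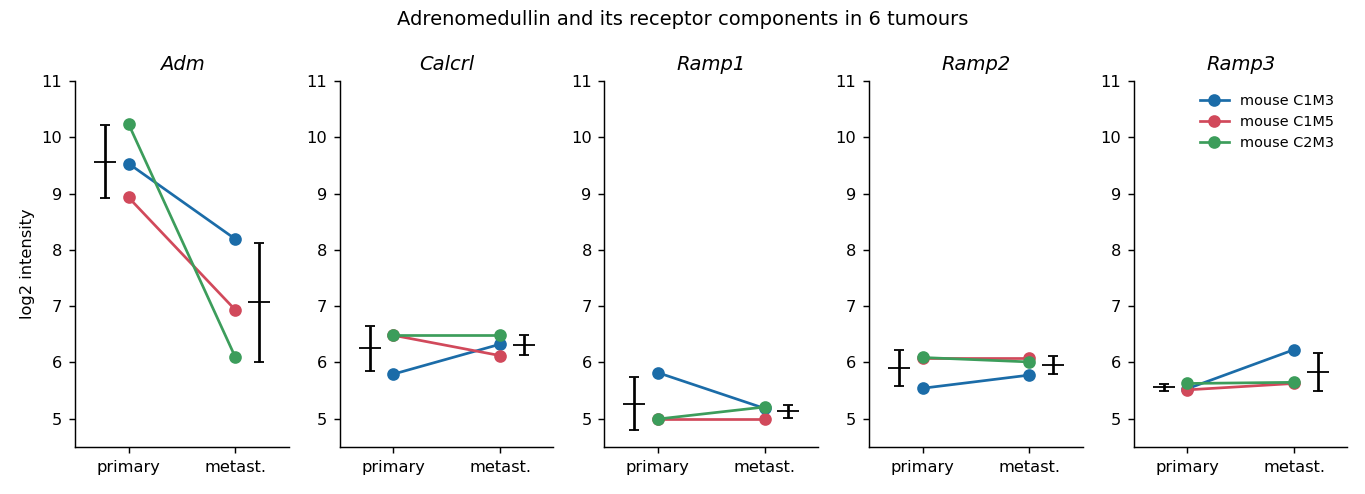
Log2 intensity of Adm, Calcrl, Ramp1, Ramp2 and Ramp3 in the primary and metastatic (metast.) tumour of each mouse, with 1 point per array, a line joining the tumours of a mouse, and the group mean ± SD (n = 3) as black bars. All 3 Adm lines slope down, from 8.93 to 10.24 down to 6.09 to 8.19, while each receptor gene stays within 0.82 log2 units over the 6 arrays.

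Of all 30142 genes, 8.64% were lower in the metastatic tumour of all 3 mice and 2.84% had every metastatic value below every primary value. Adm was chosen for the former, so nothing is read from its place among them. The median difference over all genes was 0.02. With limma, 0 of the 30142 genes, or 0%, passed an adjusted p of 0.05, with 1269 at an unadjusted p under 0.05, and with the mouse as a block the number was also 0.

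The main receptor gene, Calcrl (Entrez Gene 54598), had nearly equal means in both groups. Its primary values were 5.79, 6.48 and 6.48, and its metastatic values were 6.32, 6.12 and 6.48. The primary tumour of C1M3 was the lowest array, and 3 arrays shared the highest value. The means were 6.25 ± 0.40 (SD, n = 3) and 6.31 ± 0.18, a difference of 0.06 (SE 0.23, adjusted p = 0.966 with limma), with a 95% confidence interval from -0.53 to 0.65. Within C1M3 Calcrl was higher in the metastatic tumour by 0.53, within C1M5 the difference was -0.36, and within C2M3 it was 0.00. Without the primary tumour of C1M3 the difference was -0.17, so its sign is not settled.

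Ramp2 (Entrez Gene 54409) encodes the partner that gives the receptor its affinity for adrenomedullin. It had primary values of 5.54, 6.09 and 6.09 and metastatic values of 5.78, 6.09 and 6.01. Both tumours of C1M3 were lower than the other 4, which lay within 0.08 of each other. The group difference was 0.05 (SE 0.19, adjusted p = 0.959 with limma), with a 95% confidence interval from -0.43 to 0.53. It was -0.13 without the primary tumour of C1M3.

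Ramp3 (Entrez Gene 56089) encodes the other adrenomedullin partner and was the member with the widest receptor difference. Primary values were 5.53, 5.51 and 5.63, and metastatic values were 6.23, 5.63 and 5.65. The metastatic tumour of C1M3 was the one array that lay clear of the rest, and the lowest metastatic value equalled the highest primary value. The means were 5.56 ± 0.06 (SD, n = 3) and 5.83 ± 0.34, a difference of 0.28 (SE 0.18, adjusted p = 0.842 with limma), with a 95% confidence interval from -0.19 to 0.75. It was higher in the metastatic tumour of all 3 mice, by 0.70, 0.11 and 0.02, a pattern that 11.1% of all genes showed. Without the metastatic tumour of C1M3 the difference was 0.08.

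Ramp1 (Entrez Gene 51801), whose protein turns the receptor towards calcitonin gene-related peptide, had primary values of 5.82, 4.995 and 4.995, and metastatic values of 5.18, 4.995 and 5.21. The primary tumour of C1M3 was the highest array, and 3 of the others held the same lowest value. The difference was -0.14 (SE 0.26, adjusted p = 0.899 with limma), with a 95% confidence interval from -0.80 to 0.52. Without the primary tumour of C1M3 it was 0.13.

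None of the 4 receptor genes had groups that did not overlap, against 2.84% of all genes with every metastatic tumour lower and 4.79% with every one higher. The confidence intervals, from the fit that leaves out the pairing by mouse, leave room for differences from -0.80 to 0.75 log2 units. The levels of Ramp1, Ramp2 and Ramp3, of Calcrl on 3 arrays and of Adm in the metastatic tumour of C2M3 lay within the range of the background probe sets, whose highest members are, by their names, those with the least G and C. Whether these values lie above background was therefore not settled.

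**Figure D2:**
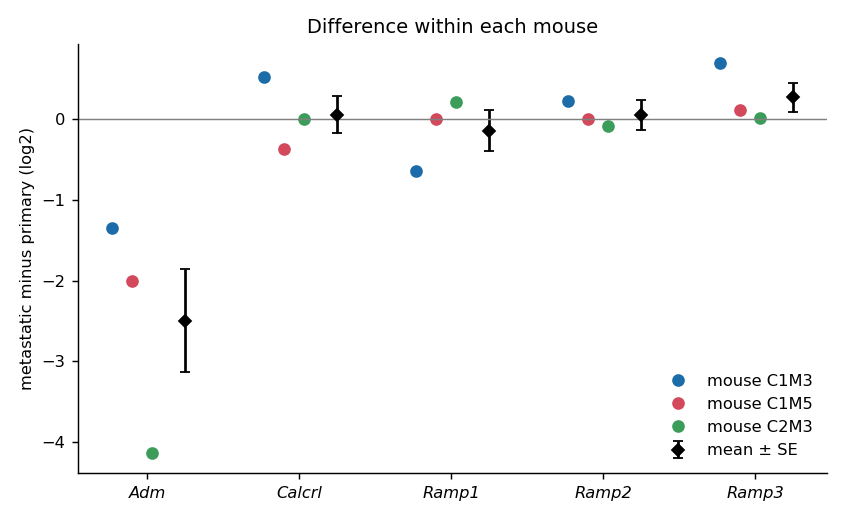
Metastatic minus primary log2 intensity for each of the 5 genes, with 1 coloured point per mouse and the mean difference ± SE from limma as a black diamond. The 3 Adm points lie between -4.15 and -1.34, while those of the receptor genes lie between -0.64 and 0.70 and fall on both sides of 0 or touch it, except for Ramp3.

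The receptor genes were then set beside each other and beside endothelial markers. Over the 6 arrays, which share 3 mice, Calcrl and Ramp2 had a Pearson r of 0.76, Calcrl and Ramp1 of -0.79 and Ramp1 and Ramp2 of -0.93. Without the primary tumour of C1M3 these were 0.11, 0.17 and -0.74, so the first pair of relations rests on that array. Adm had an r between -0.25 and 0.20 with each receptor gene, and between -0.56 with Ramp1 and 0.38 with Calcrl without that array. Ramp2 and Ramp3 went from -0.24 to -0.97. Among the arrays left, the metastatic tumour of C1M3 stood apart for both genes. It had Ramp2 at 5.78 against 6.01 to 6.09, and Ramp3 at 6.23 against 5.51 to 5.65. All these values lay within the range of the background probe sets. Among blood endothelial markers, the metastatic mean was lower for 16 of 19 measured genes, the median difference was -0.21, and none passed the threshold. The VE-cadherin gene Cdh5 had primary values of 7.30, 8.84 and 10.94 and metastatic values of 8.86, 6.85 and 8.84.

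Across the tumours the mean of the endothelial markers spanned more than any receptor gene. Of its 19 genes, 4, Sox17, Erg, Sox18 and Esam, spanned less than every receptor gene, and Ecscr spanned less than all of them but Ramp2. The mean was highest in the primary tumour of C2M3 at 7.53, where Calcrl was no higher than in 2 other arrays, and it was low in the metastatic tumour of C1M5 at 5.88, where Ramp2 tied with its level in the primary tumour of that mouse. Within the mice the median endothelial difference was 0.69, -0.68 and -1.27, in the same direction as Calcrl in C1M3 and C1M5. Markers of lymphatic endothelium, a cell type in which adrenomedullin is also known to act, had a lower mean in 5 of 6 measured genes, with a median of -0.36 and none past the threshold. The higher gene, Pdpn, was bright at 13.52 to 14.62 and raises the mean of this list. Prox1 and Reln lay within the range of the background probe sets on every array, as did Lyve1 and Mmrn1 in the metastatic tumours. Leaving out the primary tumour of C1M3 gave medians of -0.70 for the blood and -0.74 for the lymphatic markers, with 18 of 19 and 5 of 6 lower. Leaving out that of C2M3 instead gave 0.11 and -0.25. Lyve1, a receptor of lymphatic endothelium and some macrophages, had its highest value, 7.02, in the primary tumour of C2M3.

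**Figure D3:**
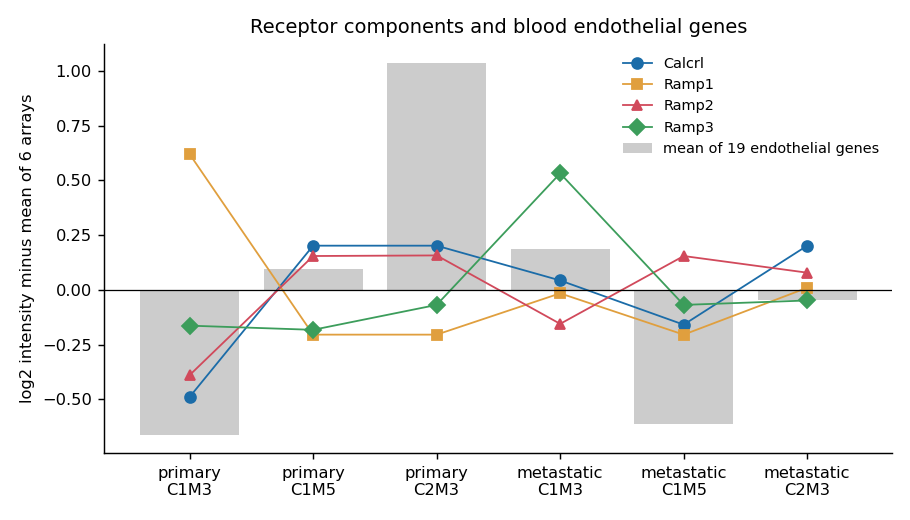
Log2 intensity of Calcrl, Ramp1, Ramp2 and Ramp3 (points) and the mean of 19 blood endothelial markers (grey bars) on each array, each as its deviation from its own mean over the 6 arrays. The primary tumours of C1M3 and C2M3 hold the lowest and the highest bar, and the primary tumour of C1M3 is also the lowest array for Calcrl and Ramp2.

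Other members of the calcitonin peptide family and genes that handle adrenomedullin were near flat, apart from a pair of enzymes. The flat ones lay between 3.19 and 5.44, within the range of the background probe sets, so their flatness may be a lack of signal. Of 11 listed genes 8 were measured on a probe set with 1 symbol, with the metastatic mean lower for 4 and higher for 4. The median difference was -0.005 and none passed the threshold. Over the few listed genes kept by a filter on dim genes, Mme, Pam and Crcp among them, the median was 0.21. Mme, the gene of neprilysin, a membrane protease that cleaves adrenomedullin among other peptides, differed by 1.13 (SE 0.58, adjusted p of 0.842 or above with limma). Primary values were 8.09, 9.73 and 9.55, and metastatic values 10.32, 9.55 and 10.88. The lowest array was again the primary tumour of C1M3, in C1M5 the difference was -0.18, and without the primary tumour of C1M3 the mean difference was 0.61. Pam, which encodes the enzyme that amidates adrenomedullin into its active form, differed by 0.44 (SE 0.35), with 10.96 in the metastatic tumour of C2M3 and 9.55 to 9.89 elsewhere, and by 0.07 without that tumour. Adm2, the gene of a related peptide that uses the same receptor, was dim at 3.19 to 3.39 and differed by 0.11 (SE 0.06), and Crcp, an accessory protein of the calcitonin gene-related peptide receptor, differed by -0.06 (SE 0.04).

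Genes of the cyclic AMP pathway below the receptor also gave no call. Of 21 listed genes 17 were measured, and the metastatic mean was lower for 13 and higher for 4, with a median of -0.07, or -0.17 without the primary tumour of C1M3. The adenylyl cyclase gene Adcy7, which is abundant in blood cells, differed by 0.60 (SE 0.35), and by 0.25 once the C1M3 primary tumour was left out, and the regulatory subunit genes of protein kinase A Prkar1a and Prkar2a by 0.31 (SE 0.22) and -0.30 (SE 0.23). These became 0.12 for Prkar1a without the primary tumour of C2M3 and -0.05 for Prkar2a without the metastatic tumour of C2M3. Creb1, the transcription factor that protein kinase A activates, was the one gene of the list whose groups did not overlap, 1 of 17 against 2.84% of all genes, with primary values of 10.68, 10.83 and 10.66 and metastatic values of 10.37, 10.54 and 10.54. Its difference was -0.25 (SE 0.08, adjusted p of 0.842 or above with limma).

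Adm did not run with the other targets of hypoxia in every mouse. For all 19 other hypoxia targets the metastatic mean was the lower one, by a median of -0.49, and none passed the threshold. Of them 1, the adenylate kinase gene Ak4, had a lower metastatic value in all 3 mice, against 8.64% of all genes, and none had groups that did not overlap. Without the primary tumour of C1M3 7 of 19 had a lower mean, with a median of 0.02, and without the metastatic tumour of C2M3 it was also 7, with a median of 0.06.

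Vegfa is also driven by the oxygen-sensing pathway, and its product is what the injected cells were made to secrete. How much of its signal came from that change to the cells was not tested. Vegfa had primary values of 15.00, 14.09 and 12.92 and metastatic values of 14.50, 14.20 and 10.06. The mean difference of -1.08 (SE 1.39) came mostly from C2M3, and in C1M5 the metastatic tumour was higher by 0.10. Bnip3, the gene of a mitochondrial protein, had a difference of -0.99 (SE 0.59), Slc2a1, which encodes a glucose transporter, of -0.97 (SE 1.68) and Ero1a, an oxidase of the endoplasmic reticulum, of -0.85 (SE 1.61). Without the metastatic tumour of C2M3 the differences of Vegfa, Slc2a1 and Ero1a were 0.35, 0.25 and 0.41, and that of Bnip3 was -0.37. With the C1M3 primary tumour left out instead, those of Slc2a1 and Ero1a were 0.31 and 0.15.

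The mean of the 19 targets had primary values of 9.48, 8.55 and 7.96 and metastatic values of 8.73, 8.66 and 7.07. Among primary tumours C2M3 had the lowest mean of these targets and the highest Adm. In C1M5 the median difference of the targets was 0.06, where Adm differed by -2.00, while in C1M3 and C2M3 it was -0.80 and -0.72 against -1.34 and -4.15 for Adm. The difference of Adm minus that of the list mean was -0.59, -2.10 and -3.25 in the 3 mice, and it was not tested.

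**Figure D4:**
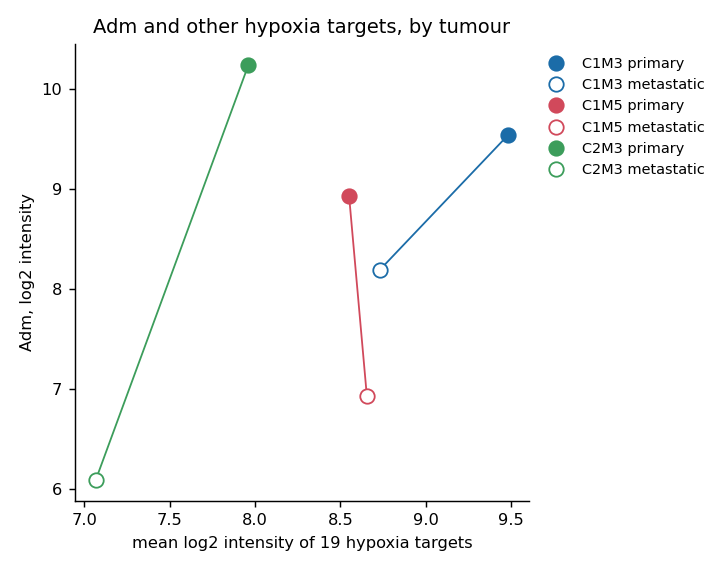
Log2 intensity of Adm against the mean log2 intensity of 19 other hypoxia targets, with 1 point per tumour (filled for primary, open for metastatic) and a line joining the tumours of a mouse. The line of C1M5 is almost vertical, since the target mean is 8.55 and 8.66 while Adm is 8.93 and 6.93.

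The oxygen-sensing genes themselves varied less evenly. Of 9 measured, the metastatic mean was lower for 6 and higher for 2, the median was -0.07, and none passed the threshold. With the primary tumour of C1M3 or the metastatic tumour of C2M3 left out, 4 were lower and 4 higher, with a median of 0. Epas1, which encodes the HIF subunit typical of endothelium, had primary values of 9.99, 11.90 and 12.47 and metastatic values of 11.40, 10.35 and 9.96, a difference of -0.88 (SE 0.78). It was higher in the metastatic tumour of C1M3 by 1.41, where Adm was lower. Its difference was -1.62 with the primary tumour of C1M3 left out and -0.38 with that of C2M3 left out. The prolyl hydroxylase genes Egln3 and Egln1, which mark HIF for destruction and are themselves HIF targets, differed by -1.06 (SE 2.04) and -0.71 (SE 0.90), but by 0.83 for Egln3 without the metastatic tumour of C2M3 and by 0.03 for Egln1 without the primary tumour of C1M3. Hif1a differed by -0.23 (SE 0.21), and by -0.003 once the C1M3 primary tumour was left out.

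Markers of other cells differed in the same direction as Adm in some mice. The mean of 7 adipocyte markers had primary values of 5.70, 9.18 and 11.41 and metastatic values of 5.83, 5.71 and 5.43, and Adipoq, the defining adiponectin gene, ran from 5.75 to 13.21. The metastatic mean was lower for all 7, by a median of -3.64, or -2.15 without the primary tumour of C2M3. Within C1M3 their median difference was 0.14, and Adm differed there by -1.34. The adipocyte means of the C1M3 primary tumour and of all metastatic tumours lay within the range of the background probe sets. The 0.14 may therefore be a lack of signal, and the floor may limit the size of the falls. The 9 mural cell markers had their highest mean, 8.02, in the primary tumour of C2M3 as well, against 6.01 to 7.33 elsewhere, with 5 lower and 4 higher and a median of -0.10, or 9 lower and a median of -0.69 without the primary tumour of C1M3. Without that of C2M3 the mural median was 0.24. Macrophage markers ran the other way in C1M3, with 7 of 8 genes higher over the groups, a median of 0.61, and within-mouse medians of 1.57, -0.01 and 0.08. With the C1M3 primary tumour left out, 6 of the 8 were lower, with a median of -0.15, and with that of C2M3 left out the median was 0.99. Lymphocyte markers had means of 4.46 to 5.18 and neutrophil markers of 4.77 to 5.23, all within the range of the background probe sets. Their median differences were 0.18 and 0.03. For lymphocytes the median became 0.11 with the C1M3 primary tumour left out and 0.09 with the C2M3 metastatic tumour left out. Over the only lymphocyte genes kept by a filter on dim genes, Cd3e and Cd3g, it was 0.45. For neutrophils the median became -0.01 with the C1M3 primary tumour left out and -0.19 with the C1M5 primary tumour left out. The part of these cells in the Adm difference was not tested.

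The genes whose pattern was most like that of Adm were found by Pearson r over the 6 arrays, among 2939 genes with a range of at least 1 log2 unit. The 6 nearest were Zc3h4 with r = 0.99, Macrod1, an ADP-ribose hydrolase gene, and the metallothionein gene Mt1 with r = 0.98, Glrx5, a gene of iron-sulphur cluster assembly, with r = 0.97, and the translation repressor gene Eif4ebp1 and Agfg2 with r = 0.96. In all 21 genes, or 0.715%, had an r above 0.9. Mt1 had primary values of 7.72, 7.28 and 7.58 and metastatic values of 6.90, 6.48 and 6.19, a narrower difference of -1.01 (SE 0.22). None of the 6 was on a list above. Leaving out each array in turn, r stayed between 0.929 and 0.997 for these 6 genes. They had been picked by their r over the same arrays, so this is no separate check of the likeness.

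For Calcrl the 5 nearest of 2940 genes were Tlr9, an endosomal sensor of DNA, at r = 0.996, the scaffold gene Iqgap2, the lysosomal protease gene Ctsc and Iqsec1 at r = 0.98, and the RNA-editing enzyme gene Apobec1 at r = 0.97. All 5 were lowest in the primary tumour of C1M3, as Calcrl was: Ctsc had 7.23 there and 8.48 to 9.37 elsewhere. For Ramp2 they were Sema6a, the matrix protein gene Efemp1, Fam102b, Tmem154 and the tumour necrosis factor receptor gene Tnfrsf1b, each at r = 0.99, and these too were lowest in the primary tumour of C1M3, with Efemp1 at 7.04 there, 8.17 in the metastatic tumour of that mouse and 9.70 to 10.77 in the other mice. Ramp1 was nearest to Necap1 at r = 0.996 and to Ube2e3 and Ddx47 at r = 0.99, which were highest in the primary tumour of C1M3. Leaving out each array in turn, that one included, the lowest r was 0.92 for the Calcrl genes, 0.95 for the Ramp2 genes and 0.94 for the Ramp1 genes. As with Adm, this is no separate check of the likeness. Ramp3 was nearest to Bspry, Tacr1 and Cyfip2, with r = 0.98, 0.96 and 0.95, which were highest in the metastatic tumour of C1M3. Without that array r was 0.75 for Tacr1 and 0.59 for Cyfip2, and Bspry had no spread left. An r above 0.9 was found for 97 genes (3.30%) with Calcrl, 142 (4.83%) with Ramp1, 120 (4.08%) with Ramp2 and 5 (0.17%) with Ramp3.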

How the data were processed

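RNA from 6 tumours was measured on arrays, 1 per tumour, grouped by the tissue label. The authors deposited log2 intensities, 1 per probe set. RMA and Transcriptome Analysis Console are the tools listed, with no version, in the submitters' processing notes. The genome build of the array annotation is not given in the sources used here. Of 65956 non-control probe sets, 30604 carried 1 gene symbol, 2146 several and 33206 none in the platform annotation. Symbols of 827 were updated through a RefSeq table. The probe set with the highest mean was kept for each gene, which left 30142 genes with no filter on dim ones.

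Metastatic and primary tumours were compared over all genes with limma 3.58.1 in R 4.3.3, with tissue as the only term, two-sided, with Benjamini-Hochberg adjustment. SE and 95% intervals are moderated ones from that fit. The fit was tested on simulated data. The tumours are paired by the donor label; deviations from the group means correlated across genes with r = -0.05, 0.35 and 0.07 within C1M3, C1M5 and C2M3. A replicate block for the mouse was an alternative, as were centring, a filter on dim genes, array weights, averaging probe sets, a covariate for olfactory and vomeronasal receptor genes, and leaving out arrays or mice. The members and lists were chosen with earlier results of these data known. Beside the 5 members, the text names the 4 widest differences of each pathway list and the genes most alike in pattern; predicted genes, microRNAs, small nucleolar RNAs, olfactory receptors and antigen receptor segments were left out of the latter. Marker genes, Creb1 and Ak4 as exceptions within their lists, and examples among them were picked after their values were seen. The number of arrays limits the precision.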

Additional observations from a re-analysis of the deposited data

How the results depend on the processing

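Over 15 alternatives the Adm difference lay between -3.07 and -1.67, with a sign that the choice of the gene fixed where arrays were left out. That of Ramp3 lay between 0.07 and 0.40. The sign of Ramp3 could not reverse where arrays were left out either, since no metastatic value lay below a primary one. No setting gave a gene past the threshold, the paired fit with the mouse as a replicate block included (0 genes). The block changed no call. The SEs given with the differences above leave the pairing out. With the block the SE was 0.74 for Vegfa, 0.60 for Slc2a1, 0.47 for Ero1a, 0.56 for Egln3 and 0.39 for Egln1. These were smaller than without it, while those of Adm, Bnip3 and Epas1 were larger, at 0.69, 0.62 and 0.96. The SEs of Calcrl, Ramp1, Ramp2 and Ramp3 were 0.22, 0.21, 0.09 and 0.18 with the block. Without it they were 0.23, 0.26, 0.19 and 0.18. Signs of the receptor genes other than Ramp3 were not stable. With array centring the difference was -0.049 for Calcrl and -0.054 for Ramp2, with array weights -0.16 for Calcrl, 0.021 for Ramp1 and -0.048 for Ramp2, and without both tumours of C1M3 it was -0.18, 0.11 and -0.039 for Calcrl, Ramp1 and Ramp2. Leaving out each array gave ranges from -0.17 to 0.17 for Calcrl, -0.28 to 0.13 for Ramp1, -0.13 to 0.14 for Ramp2, -2.31 to 0.83 for Egln3, -1.25 to 0.031 for Egln1, -1.87 to 0.35 for Vegfa, -2.16 to 0.31 for Slc2a1 and -2.05 to 0.41 for Ero1a. Over all 15 alternatives list medians lay between -0.87 and 0.06 for hypoxia targets, -0.98 and 0.11 for blood endothelial, -0.79 and 0.24 for mural, -0.15 and 0.99 for macrophage and -5.53 and -2.04 for adipocyte genes. The cause was not tested. Counts and list medians without single arrays were added after seeing the data. Dim signal limits Ramp1, Ramp2 and Ramp3.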

Other observations

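Identical values on different arrays were common in the deposited table. Of 30142 genes 15487, or 51.4%, had the same value, to the last deposited digit, on at least 2 of the 6 arrays. Calcrl held 6.48 on 3 arrays, Ramp1 held 4.995 on 3, and Ramp2 and Ramp3 each repeated 1 value, whereas Adm had 6 distinct values.

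Set against the mean of the 19 blood endothelial markers on the same array, the difference of Calcrl between metastatic and primary tumours was -0.32, 0.35 and 1.08 in C1M3, C1M5 and C2M3. For Ramp2 it was -0.61, 0.71 and 1.003, and for Ramp3 -0.15, 0.82 and 1.10. Set against the 6 lymphatic markers, of which Pdpn was bright and Prox1 and Reln dim, Ramp3 gave 0.46, 0.65 and 0.92. In C2M3 Calcrl, Ramp2 and Ramp3 themselves differed by 0.00, -0.08 and 0.02, so the values there come mainly from the fall of the marker means. Ramp2, Ramp3 and some Calcrl values lay within the range of the background probe sets. No larger share of receptor per endothelial cell can be read from these values.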
